A study of Mus musculus with 12 samples.

Results

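The genes described here encode the enzymes that write and erase methyl groups on histones and those that remove acetyl groups. They were chosen by name: every listed symbol beginning with Kdm, Kmt, Hdac, Sirt or Setd and a digit, together with Ezh1, Ezh2, Ehmt1, Ehmt2, Nsd1, Dot1l, Suv39h1, Suv39h2, Jmjd6 and Phf8. The rule found 59 of the 14541 genes listed, which are 22 writers and other SET domain proteins, 19 erasers of methyl marks and related JmjC proteins, and 18 deacetylases. Of the 59, 57 passed the filter on low values (at least 1 FPKM in at least 4 libraries) and were tested, while Hdac11 and Sirt5 did not pass it. Hdac9 passed it through the LPS libraries alone, so it had to differ between groups, and nothing is supported with it. FPKM are fragments scaled to gene length and library depth, which allows levels to be compared between genes.

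The libraries came from wild-type mouse forebrain cells that bound beads against CD11b, a surface integrin of microglia that other myeloid cells also carry. Forebrains without olfactory bulbs were taken from perfused pups at postnatal days 7 to 9, digested with papain, and the bound cells were plated at 40000 to 80000 per well in microglia growth medium. A group of 4 libraries received 500 nM of recombinant Hevin, a matricellular protein that astrocytes secrete, another 4 received 50 ng/mL of LPS, the bacterial lipopolysaccharide that activates Toll-like receptors, and the 4 Media controls received the same volume of medium. RNA was collected after 6 h in every group, so all groups share the dissociation, the bead selection and the culture. The labels give each group the numbers 1 to 4, and the libraries of a number form a set of 3, one from each treatment. They do not say whether the numbers are separate animals or litters. The fit takes out differences between numbers (the number is a block), so p-values measure the spread then left between these libraries. Values given as without the block keep the differences between numbers in that spread.

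Histone lysine methylation is read according to its site. Methylation of H3K4 by the Kmt2 and Setd1 complexes marks promoters and enhancers, that of H3K36 by Setd2 and Nsd1 marks transcribed and intergenic stretches, and that of H3K9 by Suv39h and Ehmt enzymes or of H3K27 by Ezh enzymes marks silent chromatin. Erasure is by flavin-dependent amine oxidases (Kdm1a, Kdm1b) or by iron-dependent JmjC dioxygenases (most other Kdm proteins). Zinc-dependent Hdac proteins and NAD-dependent sirtuins remove acetyl groups from histones and from other proteins. In macrophages Kdm6b is a known early target of inflammatory signalling.

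Kdm6b had no entry among the RefSeq promoters used, so its promoter is not shown. Kdm1a and Kdm7a rose with Hevin, Ehmt2 rose with Hevin and fell with LPS, and Hdac5 fell most with LPS. Promoter stretches are shown for these 4 members, which had an entry. Each is the 100 bases just upstream of the RefSeq start site on the gene's strand (GRCm38.p6), written 5′ to 3′, and capitals mark matches to a GC box (GGGCGG) or an E-box (CACGTG) on either strand. They lie at chr4:136602724-136602823 on the minus strand, chr6:39206774-39206873 on the minus strand, chr17:34898374-34898473 on the plus strand and chr11:102230173-102230272 on the minus strand.
Kdm1a: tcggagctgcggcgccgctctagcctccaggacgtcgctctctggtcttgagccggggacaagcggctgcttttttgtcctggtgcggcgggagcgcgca
Kdm7a: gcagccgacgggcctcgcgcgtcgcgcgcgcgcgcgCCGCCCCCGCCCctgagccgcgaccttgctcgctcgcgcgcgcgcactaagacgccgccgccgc
Ehmt2: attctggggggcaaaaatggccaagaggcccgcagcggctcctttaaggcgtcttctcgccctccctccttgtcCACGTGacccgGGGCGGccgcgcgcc
Hdac5: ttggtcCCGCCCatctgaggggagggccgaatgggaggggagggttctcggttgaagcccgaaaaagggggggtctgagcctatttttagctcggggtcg

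The stretches of Kdm7a, Ehmt2 and Hdac5 hold a GC box, and that of Kdm1a holds neither motif. RefSeq promoters, each a window of 300 bases from 250 before to 50 after a start site, were found for 46 of the 59 members (61 promoters). A GC box was present in 62.3% of these, against 35.7% of all 32851 promoters in the table. An E-box was present in 9.84% against 7.15%, a CCAAT box (CCAAT) in 36.1% against 37.4%, and an AP-1 match (TGANTCA) in 9.84% against 7.81%. An NF-kB motif was in 1.64% against 1.63%, the CRE pattern TGACGTCA in 3.28% against 1.79%, and the ETS pattern CCGGAAGT in 4.92% against 3.89%. Both strands were searched, windows of neighbouring start sites can overlap, and a match describes letters only. The shares do not cover Kdm6b or the other members without a promoter entry.

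Recovered reads ranged from 18343996 to 27361665 per library. The 10 microglia markers were present in every library. Their summed levels were 834 to 1086 FPKM in Media, 1432 to 2014 FPKM in Hevin and 723 to 1026 FPKM in LPS. Of the 10, 8 were called higher with Hevin, against 10.8% of all genes tested. All 6 genes of an LPS response check (Tnf, Il1b, Il6, Nfkbia, Tnfaip3, Cxcl10) were higher in LPS than in Media. The 3 libraries of number 2 stand apart, with neutrophil and monocyte markers summing to 1904 to 2071 FPKM against 39.4 to 106 FPKM in the other 9. Endothelial and mural markers summed to 32.1 to 182 FPKM and differed by number, and the astrocyte list summed to 20.9 to 44.8 FPKM in Hevin, 49.8 to 85.6 FPKM in Media and 112 to 234 FPKM in LPS. The part of these cells in the results below was not tested, and in bulk libraries fewer cells of a type and less RNA per cell cannot be told apart.

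Levels in Media spanned a wide range. Of the 59 members, 25 averaged at least 20 FPKM, 9 were between 10 and 20 FPKM, 22 between 1 and 10 FPKM and 3 below 1 FPKM. Dot1l, the H3K79 methyltransferase, had the highest mean at 94.4 ± 14.2 FPKM (SD, n = 4), followed by Sirt2, a mainly cytoplasmic sirtuin, at 61.9 ± 4.05 FPKM and by Setd8, the H4K20 monomethyltransferase now named Kmt5a, at 56.2 ± 9.08 FPKM. Sirt2 and Setd8 did not differ beyond their spread, and their ranges (57.7 to 67.2 and 44.8 to 64.9 FPKM) overlapped. At the low end were Hdac9 at 0.553 ± 0.0367 FPKM, Sirt5 at 0.586 ± 0.235 FPKM and Hdac11 at 0.450 ± 0.282 FPKM. Among paired enzymes for the same mark, Ezh1 (8.74 ± 0.848 FPKM) stood above Ezh2 (5.47 ± 0.630 FPKM), with ranges of 8.19 to 10.0 and 4.69 to 6.23 FPKM that did not overlap. Hdac2 (23.1 ± 1.87 FPKM) stood above Hdac1 (5.85 ± 0.536 FPKM), the other subunit of the same complexes. Hdac1 has processed copies in the mouse genome, so its level is uncertain.

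**Figure D1:**
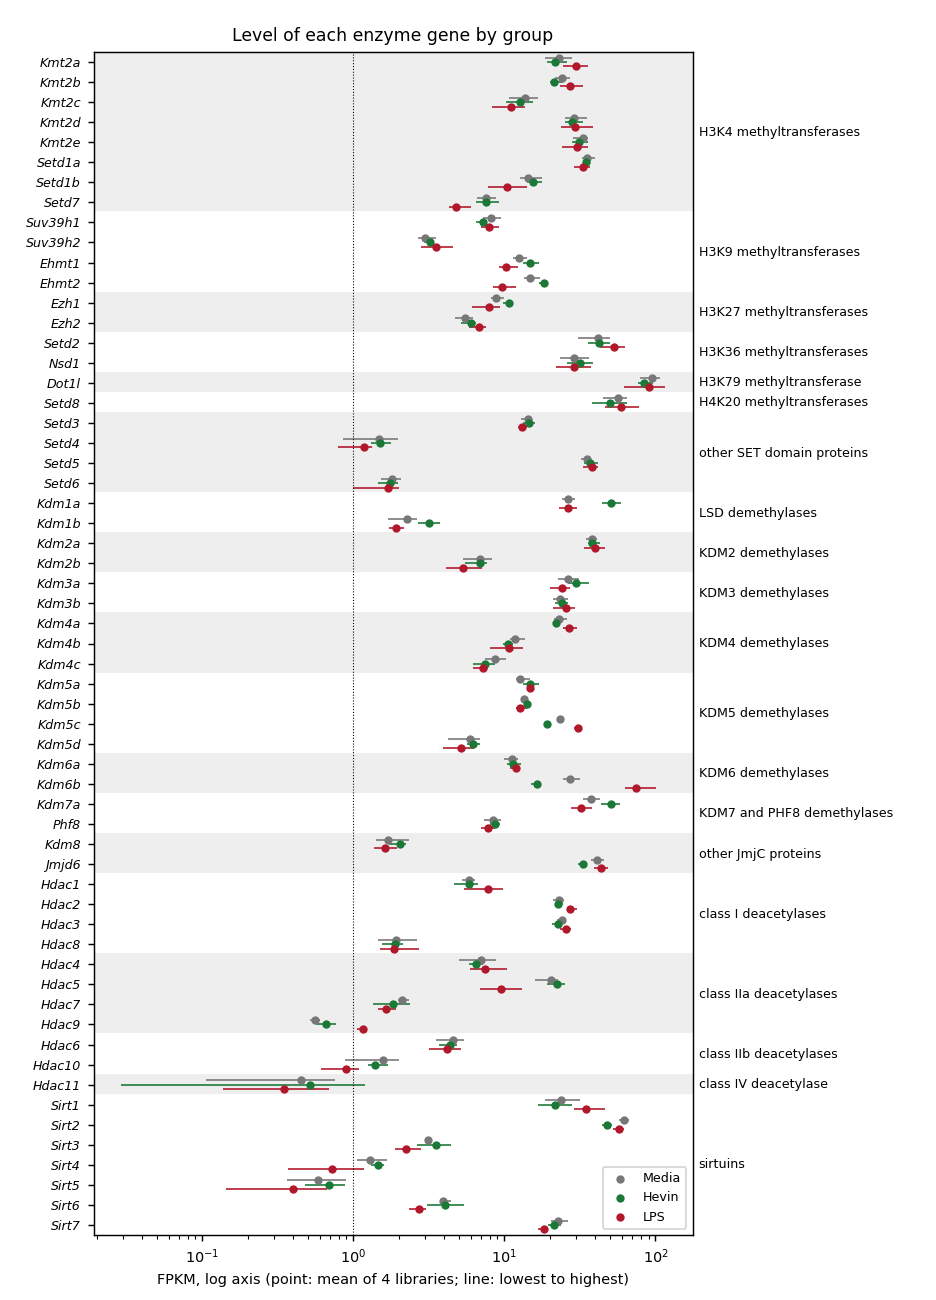
Level of each of the 59 enzyme genes in Media, Hevin and LPS, in FPKM on a log axis, grouped by enzyme class; points are means of 4 libraries and lines run from the lowest to the highest. Dot1l is highest in Media at 94.4 FPKM, while Hdac9, Hdac11 and Sirt5 lie below the dotted line at 1 FPKM.

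With Hevin, 5 members rose against Media (Kdm1a, Kdm7a, Kdm1b, Ehmt2 and Ehmt1) and 4 fell (Kdm6b, Sirt2, Jmjd6 and Kdm5c). These are 8.77% and 7.02% of the 57 tested, below the 10.8% and 10.6% of all 11242 genes tested that were called higher and lower, so the enzymes as a group were called no more often than other genes. With LPS, 8 rose (Kdm6b, Sirt1, Hdac9, Kmt2a, Setd2, Kdm5c, Hdac2 and Kdm4a) and 14 fell, which are 14% and 24.6% against 21.5% and 22.2% of all genes. Leaving aside Hdac9, which passed the filter through the LPS libraries alone, 7 rose and 14 fell of 56 (12.5% and 25%). The median log2 fold change of the tested members was 0.01 with Hevin and -0.08 with LPS, against 0.00 and -0.02 over all genes. Calls are from limma with the replicate number as a block and an adjusted p under 0.05. Without the block the counts were 1 and 3 with Hevin and 3 and 5 with LPS, against 4.27% and 3.1% and 13.2% and 12.6% of all genes. Leaving aside Hdac9, the LPS counts without the block were 2 and 5 of 56.

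By role, the deacetylases had 0 members higher and 1 lower of 16 tested with Hevin (0% and 6.25%). With LPS they had 3 higher and 6 lower (18.8% and 37.5%). Hdac9 is among those 3. Writers had 2 higher and 0 lower of 22 with Hevin (9.09% and 0%), and 2 higher and 5 lower with LPS (9.09% and 22.7%). By limma at an unadjusted p under 0.05, 0 deacetylases were higher and 2 writers lower with Hevin, and limma-voom called 0 of each. The erasers had 3 higher and 3 lower of 19 under each treatment (15.8% each way). Over all genes the shares were 10.8% higher and 10.6% lower with Hevin and 21.5% and 22.2% with LPS. Without the block, the Hevin counts were 0 and 1 for deacetylases, 0 and 0 for writers, and 1 and 2 for erasers. With LPS they were 1 (Hdac9) and 3, 0 and 2, and 2 and 0. The shares over all genes were then 4.27% and 3.1% with Hevin and 13.2% and 12.6% with LPS. Both treatments were compared with the same Media libraries, so their fold changes share those values. Ehmt1, Ehmt2 and Kdm7a were called higher with Hevin and lower with LPS, and Kdm6b and Kdm5c lower with Hevin and higher with LPS.

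LPS libraries had larger FPKM sums (422173 ± 6273, SD, n = 4, against 324698 ± 5325 in Media), and the scaling factors in the authors' values were 0.804 to 0.897 in LPS and 1.02 to 1.16 in the other groups. When each library was instead set to the same FPKM sum, the median of all genes in LPS against Media moved to -0.34 and the members called became 2 higher and 43 lower, and the calls over all genes 990 higher and 6878 lower against 2416 and 2498. The values of Kdm5c, Setd2, Hdac2 and Kdm4a there were -0.00, -0.00, -0.13 and -0.15, which lie above that median by 0.34, 0.33, 0.20 and 0.18. This scaling shifts all genes of a library nearly alike, so their place relative to the median could hardly change and tests nothing. Directions for LPS are therefore relative to the bulk of genes.

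**Figure D2:**
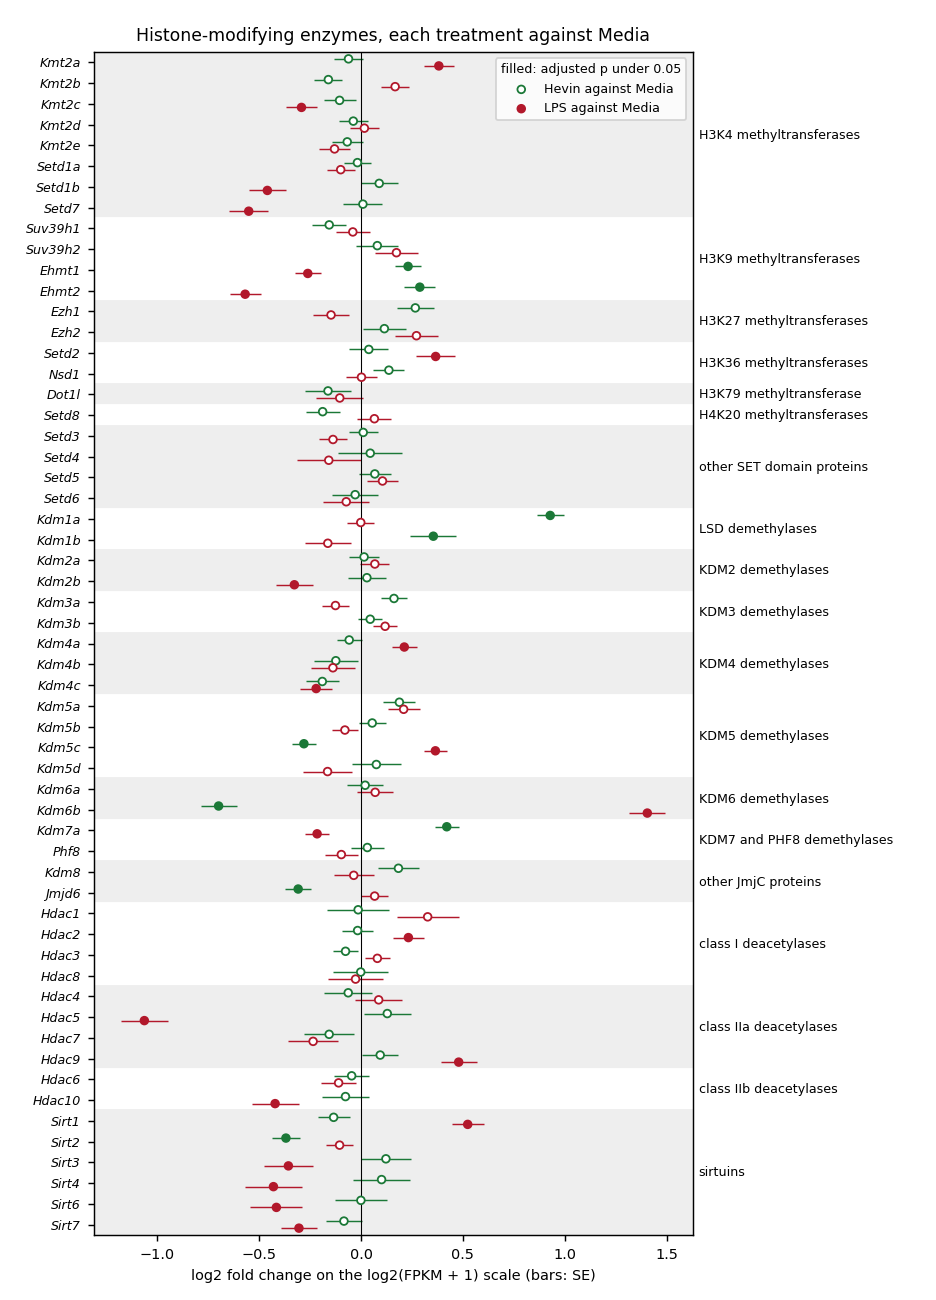
Log2 fold change on the log2(FPKM + 1) scale for the 57 tested members, with Hevin (green) and LPS (red) against Media; bars are standard errors and filled points passed an adjusted p under 0.05. Kdm6b spans the widest range, from -0.70 with Hevin to 1.40 with LPS, and Kdm1a stands alone with Hevin at 0.93.

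Among the erasers, the KDM6 pair for H3K27 split. Kdm6b, also known as Jmjd3 (chr11:69398508-69413675, minus strand, GRCm38), measured 25.6, 31.6, 27.2 and 24.5 FPKM in Media of numbers 1 to 4, 15.1, 17.2, 16.9 and 16.1 FPKM in Hevin, and 65.8, 101, 69.1 and 62.7 FPKM in LPS. The 3 groups did not overlap, and every number had the same order, Hevin lowest and LPS highest. It fell with Hevin (log2 fold change -0.70 ± 0.09 SE, adjusted p = 0.00028) and rose with LPS (1.40 ± 0.09, adjusted p = 5.2e-07), which as a ratio of means is 0.60 and 2.75. The LPS library of number 2 lies far above the other 3, and without number 2 the values were -0.65 and 1.32. The other H3K27 demethylase, Kdm6a, is X-linked and did not pass the test, at 11.3 ± 1.06, 11.4 ± 1.06 and 11.9 ± 0.714 FPKM (SD, n = 4) in Media, Hevin and LPS.

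The LSD pair of amine oxidases, which remove methyl groups from H3K4, rose with Hevin. Kdm1a (LSD1; chr4:136550540-136602723, minus strand) measured 27.5, 29.4, 23.9 and 24.2 FPKM in Media, 55.1, 59.5, 44.2 and 45.2 FPKM in Hevin, and 30.2, 26.9, 22.9 and 25.0 FPKM in LPS. Every Hevin library exceeded every library of the other groups, while Media and LPS overlapped. Its mean was 1.95 times that of Media (0.93 ± 0.07, adjusted p = 5.4e-06), and it kept its call in each of the alternatives tried. With LPS its fold change was -0.00 ± 0.07 (adjusted p = 0.99). Kdm1b (LSD2) was lower in level, at 2.65, 1.70, 2.20 and 2.51 FPKM in Media, 3.73, 2.68, 3.02 and 3.23 FPKM in Hevin, and 1.72, 2.17, 1.89 and 1.82 FPKM in LPS. It was higher in Hevin in each number, by 0.35 ± 0.11 (adjusted p = 0.046), a call that ended without the block (adjusted p = 0.11) and on leaving out any of the Media or Hevin libraries. The call of Kdm1b also ended with quantile normalization, a pseudocount of 0.1 or no filter. Its exons overlap those of Dek on the opposite strand.

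Of the 4 KDM5 demethylases of H3K4, Kdm5c alone was called by limma, while limma-voom also called Kdm5a higher with LPS (adjusted p = 0.0217). Kdm5c (chrX:152233020-152274535, plus strand) measured 24.7, 23.7, 22.7 and 22.8 FPKM in Media, 19.5, 18.7, 19.2 and 19.2 FPKM in Hevin, and 31.9, 30.2, 28.8 and 31.2 FPKM in LPS. The groups did not overlap, and every number had Hevin lowest and LPS highest. It fell with Hevin (-0.28 ± 0.06, adjusted p = 0.00585) and rose with LPS (0.36 ± 0.06, adjusted p = 0.00049), the latter relative to the bulk of genes as given above. By limma Kdm5a, Kdm5b and the Y-linked Kdm5d did not pass, with values from 0.05 to 0.19 with Hevin and from -0.16 to 0.21 with LPS. Kdm5d was present in all 12 libraries, at 3.92 to 6.88 FPKM.

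Kdm7a, which removes methyl groups from H3K9 and H3K27 (chr6:39136623-39206789, minus strand), measured 42.7, 38.9, 33.3 and 35.3 FPKM in Media, 58.0, 55.9, 43.5 and 45.7 FPKM in Hevin, and 38.2, 32.1, 27.6 and 31.1 FPKM in LPS. Within each number Hevin was highest and LPS lowest, and the Hevin libraries lay above all of Media. It rose with Hevin (0.42 ± 0.06, adjusted p = 0.00054) and fell with LPS (-0.22 ± 0.06, adjusted p = 0.013), and neither call held without the block (adjusted p = 0.067 and 0.24). The LPS call also ended without number 3 or its Media library. The related Phf8 did not pass, at 0.03 ± 0.08 and -0.10 ± 0.08.

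Jmjd6, a JmjC hydroxylase whose demethylase activity is debated, measured 40.7, 45.4, 41.3 and 37.4 FPKM in Media, 35.0, 34.7, 30.5 and 32.1 FPKM in Hevin, and 48.5, 46.0, 39.5 and 39.1 FPKM in LPS. All Hevin libraries lay below all others. It fell with Hevin (-0.31 ± 0.07, adjusted p = 0.0070, 0.072 without the block and 0.073 without number 3) and was not called with LPS (0.07 ± 0.07). Its exons overlap those of Mettl23 on the opposite strand. Kdm8 did not pass in either comparison.

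The KDM2, KDM3 and KDM4 demethylases had no call with Hevin by limma or limma-voom, where their 7 members lay between -0.19 and 0.16 and 1 KDM3 and 1 KDM4 gene passed an unadjusted p of 0.05. With LPS, Kdm4a, an H3K9 and H3K36 demethylase, rose from 21.3, 21.4, 25.8 and 23.7 FPKM in Media to 25.1, 24.5, 27.7 and 30.1 FPKM (0.21 ± 0.06, adjusted p = 0.016). The groups overlapped, but each number was higher with LPS. Kdm2b, a CpG-island binding subunit of Polycomb complexes, fell from 8.22, 8.10, 5.30 and 5.76 FPKM to 5.83, 7.06, 4.09 and 4.16 FPKM (-0.33 ± 0.09, adjusted p = 0.014). Kdm4c fell from 8.62 ± 1.34 to 7.22 ± 0.724 FPKM (SD, n = 4; -0.22 ± 0.08, adjusted p = 0.044). These 3 calls rest on the pairing by number: without the block the adjusted p were 0.11, 0.21 and 0.24. Each also ended on leaving out number 1. That of Kdm4a ended too with upper quartile scaling, quantile normalization (limma, adjusted p = 0.15), the same FPKM sum, and Media and LPS fitted alone. That of Kdm4c ended with quantile normalization, no filter, and Media and LPS fitted alone.

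Among the writers, Ehmt1 (GLP) and Ehmt2 (G9a), which dimethylate H3K9 as a heterodimer, moved in opposite directions under the treatments. Ehmt2 (chr17:34898469-34914052, plus strand) measured 17.2, 14.2, 13.5 and 14.2 FPKM in Media, 19.3, 17.0, 17.9 and 18.6 FPKM in Hevin, and 11.9, 9.62, 8.45 and 8.72 FPKM in LPS. LPS libraries all lay below Media, whereas Hevin overlapped Media through the Media library of number 1. The fall with LPS was -0.57 ± 0.08 (adjusted p = 0.00015) and the rise with Hevin was 0.29 ± 0.08 (adjusted p = 0.020, 0.15 without the block). Ehmt1 measured 14.1, 11.7, 11.3 and 12.7 FPKM in Media, 17.0, 13.3, 14.1 and 14.8 FPKM in Hevin, and 12.2, 9.69, 9.24 and 9.81 FPKM in LPS. In every number Hevin was highest and LPS lowest, with both treated groups overlapping Media. Its changes were 0.23 ± 0.06 with Hevin (adjusted p = 0.026) and -0.26 ± 0.06 with LPS (adjusted p = 0.0072), which became 0.26 and 0.098 without the block, and the Hevin calls of Ehmt1 and Ehmt2 also ended on leaving out any Media library, number 3 or number 4. Suv39h1 and Suv39h2, which trimethylate H3K9, were not called, at -0.16 ± 0.08 and 0.08 ± 0.10 with Hevin and -0.04 ± 0.08 and 0.17 ± 0.10 with LPS.

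The 8 members grouped here as H3K4 methyltransferases are Setd1a, Setd1b, Setd7, Kmt2a, Kmt2b, Kmt2c, Kmt2d and Kmt2e. The grouping does not test their activity. None of the 8 was called with Hevin by limma (-0.16 to 0.09). At an unadjusted p under 0.05 there were 0 higher and 1 lower, and limma-voom gave 0 calls. With LPS 4 were called, 1 higher and 3 lower (12.5% and 37.5%, against 21.5% and 22.2% of all genes). Without the block these were 0 and 1, against 13.2% and 12.6%. Setd7, a monomethyltransferase that also acts on other proteins, measured 7.91, 8.73, 6.80 and 6.56 FPKM in Media and 6.01, 4.47, 4.47 and 4.29 FPKM in LPS. The groups did not overlap (-0.55 ± 0.10, adjusted p = 0.00090). Setd1b, the catalytic subunit of a COMPASS complex, fell from 17.7, 12.8, 13.1 and 14.2 FPKM to 14.0, 10.7, 7.81 and 8.90 FPKM (-0.46 ± 0.09, adjusted p = 0.0020, 0.051 without the block). Kmt2c (MLL3), an enhancer methyltransferase, fell by 0.29 ± 0.08 on the log2 scale (adjusted p = 0.012, 0.28 without the block), a call that also ended without number 1, 2 or 3. Kmt2a (MLL1) went the other way, from 27.8, 24.9, 19.98 and 18.6 FPKM in Media to 35.7, 30.5, 24.3 and 29.2 FPKM in LPS. It was higher with LPS in every number (0.38 ± 0.07, adjusted p = 0.0017, 0.080 without the block). The same FPKM sum in each library also ended the call of Kmt2a (limma, adjusted p = 0.85). Their closest paralogs Setd1a (-0.10 ± 0.07), Kmt2d (0.02 ± 0.07) and Kmt2b (0.17 ± 0.07, adjusted p = 0.070) were not called by limma, while limma-voom called Kmt2b higher (adjusted p = 0.0369). Differences between paralogs were not tested.

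Other marks gave 1 call. Setd2, which trimethylates H3K36, rose with LPS from 47.5, 50.2, 38.5 and 30.6 FPKM to 62.9, 54.8, 43.1 and 53.4 FPKM (0.37 ± 0.10, adjusted p = 0.010). It was higher in all 4 numbers although the groups overlapped, and the call ended without the block (adjusted p = 0.14) and without number 1. Quantile normalization and the same FPKM sum in each library also ended it. Nsd1, which dimethylates H3K36, gave 0.14 ± 0.08 with Hevin and 0.00 ± 0.08 with LPS. The Polycomb methyltransferases Ezh1 and Ezh2 gave 0.27 ± 0.09 (adjusted p = 0.060) and 0.11 ± 0.11 with Hevin and -0.15 ± 0.09 and 0.27 ± 0.11 (adjusted p = 0.061) with LPS. By limma-voom on the recovered reads, 1 of the pair passed in each comparison: Ezh1 higher with Hevin and Ezh2 higher with LPS. Dot1l, Setd8 and the 4 other SET domain proteins (Setd3, Setd4, Setd5 and Setd6) were not called, with values from -0.19 to 0.07 with Hevin and from -0.16 to 0.11 with LPS. For Dot1l the LPS libraries ranged from 62.1 to 116 FPKM, wider than any difference between group means.

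**Figure D3:**
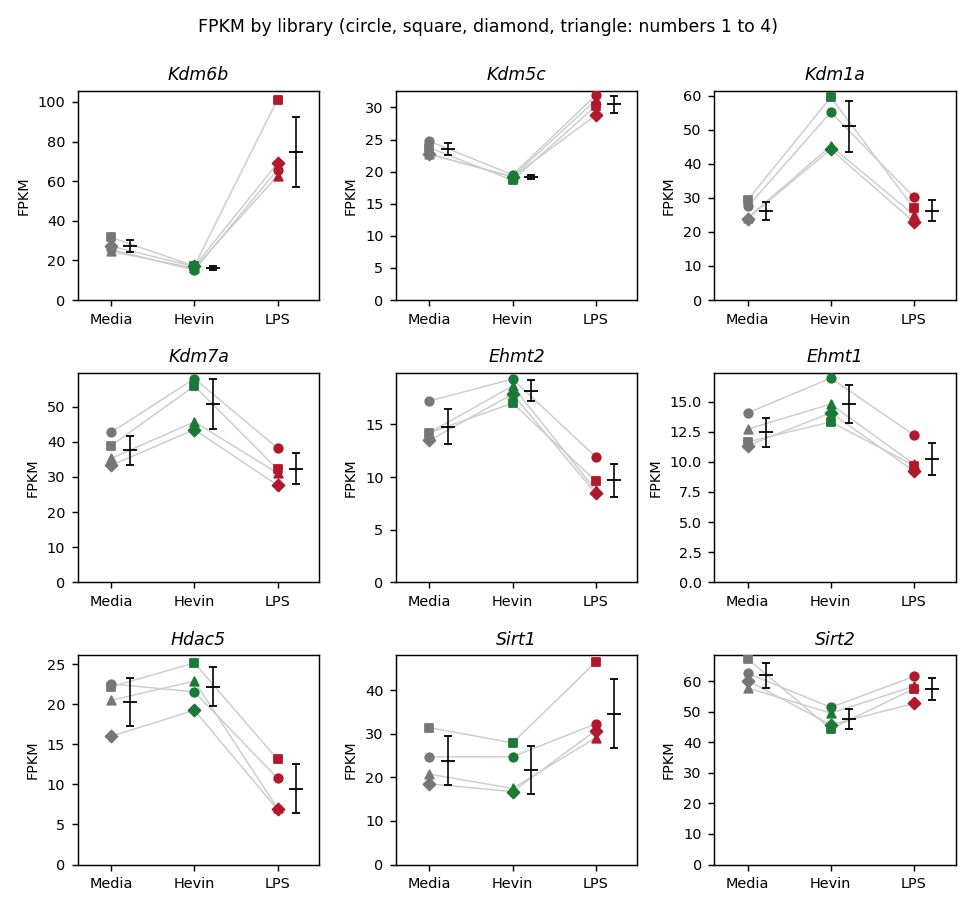
FPKM of 9 members in each library, by group; symbols give the replicate numbers 1 to 4, grey lines join the libraries of a number, and bars are the mean ± SD of 4 libraries. Kdm6b and Kdm5c fall with Hevin and rise with LPS in every number, while Kdm7a and Ehmt1 do the reverse.

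Of the 16 deacetylases tested, Sirt2 alone was called with Hevin. Sirt2, a tubulin and histone deacetylase (chr7:28766735-28788661, plus strand), measured 62.5, 67.2, 60.1 and 57.7 FPKM in Media, 51.4, 44.3, 45.7 and 49.5 FPKM in Hevin, and 61.5, 57.5, 52.7 and 58.3 FPKM in LPS. Hevin libraries lay below every library of both other groups. It fell by 0.37 ± 0.07 on the log2 scale (adjusted p = 0.0031), and the call held in every alternative. Exons of Sirt2 overlap those of Nfkbib on the opposite strand.

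Under LPS, 5 of the 6 sirtuins tested were called, 1 higher and 4 lower (16.7% and 66.7%, against 21.5% and 22.2% of all genes). Without the block 0 were called higher and 2 lower, against 13.2% and 12.6% of all genes. Sirt1, a nuclear deacetylase, measured 24.7, 31.4, 18.5 and 20.8 FPKM in Media, 24.8, 27.9, 16.7 and 17.5 FPKM in Hevin, and 32.3, 46.5, 30.8 and 29.1 FPKM in LPS. It was higher with LPS in each number, although the groups overlapped (0.52 ± 0.08, adjusted p = 0.00034, 0.083 without the block). The same FPKM sum in each library also ended the call of Sirt1. The other 4 fell. Mitochondrial Sirt3 went from 3.19, 3.05, 3.08 and 3.17 FPKM in Media to 1.89, 2.26, 2.00 and 2.80 FPKM (-0.36 ± 0.12, adjusted p = 0.035), and mitochondrial Sirt4 from 1.26, 1.66, 1.06 and 1.20 FPKM to 0.732, 0.370, 1.18 and 0.606 FPKM (-0.43 ± 0.14, adjusted p = 0.030). Chromatin-bound Sirt6 went from 3.77, 3.80, 4.44 and 3.73 FPKM to 2.97, 2.34, 2.49 and 3.03 FPKM (-0.42 ± 0.13, adjusted p = 0.022), and nucleolar Sirt7 from 21.9, 20.3, 22.8 and 26.2 FPKM to 19.5, 19.1, 17.8 and 16.6 FPKM (-0.30 ± 0.09, adjusted p = 0.018). Media and LPS did not overlap for Sirt3, Sirt6 and Sirt7 and overlapped for Sirt4. Sirt3, Sirt4 and Sirt6 rested on 14 to 326 reads per library, and without the block the adjusted p were 0.060, 0.047, 0.058 and 0.034 for Sirt3, Sirt4, Sirt6 and Sirt7. By limma-voom Sirt3 did not pass (adjusted p = 0.0533). Each of these 4 calls also ended when a library was left out. Quantile normalization ended those of Sirt3, Sirt4 and Sirt6, and fitting Media and LPS alone those of Sirt4 and Sirt7. Leaving out number 2 gave adjusted p = 0.14 for Sirt4 and 0.068 for Sirt6, number 3 ended those of Sirt3, Sirt6 and Sirt7, and Media of number 4 those of Sirt3, Sirt4 and Sirt7. Exons of Sirt3 overlap those of Ric8a and Psmd13 on the opposite strand, and those of Sirt7 overlap Mafg on the same strand. Sirt5, a desuccinylase, was not tested, at 0.143 to 0.891 FPKM.

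Class II deacetylases held the largest fall. Hdac5, a class IIa enzyme that shuttles between nucleus and cytoplasm (chr11:102194432-102230166, minus strand), measured 22.6, 22.2, 16.0 and 20.5 FPKM in Media, 21.6, 25.2, 19.3 and 22.9 FPKM in Hevin, and 10.8, 13.1, 6.88 and 7.03 FPKM in LPS. All LPS libraries lay below all others. Its LPS mean was 0.465 of that of Media (-1.06 ± 0.12, adjusted p = 3.2e-05), and the call held in every alternative. The class IIa paralogs Hdac4 and Hdac7 were not called, at 0.09 ± 0.12 and -0.24 ± 0.12. Hdac9 was below 1 FPKM in every Media and Hevin library and at 1.06, 1.23, 1.18 and 1.19 FPKM in LPS, a range chosen in part by the filter. In class IIb, Hdac10, a polyamine deacetylase, measured 1.93, 0.878, 1.47 and 1.99 FPKM in Media and 0.974, 0.615, 1.09 and 0.895 FPKM in LPS. It was lower with LPS in each number (-0.42 ± 0.11, adjusted p = 0.013, 0.066 without the block), at 35 to 152 reads per library, and the call ended without number 1 or number 4. The tubulin deacetylase Hdac6 was not called (-0.11 ± 0.09).

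Of the class I enzymes, which include the catalytic subunits of the Sin3, NuRD and NCoR complexes, Hdac2 rose with LPS. It measured 21, 24.5, 24.9 and 22.1 FPKM in Media and 26.6, 26.4, 26.2 and 30.0 FPKM in LPS, with no overlap (0.23 ± 0.08, adjusted p = 0.029). Without the block the adjusted p was 0.054, and the call ended without number 1 or number 4. It also ended with upper quartile scaling, quantile normalization (limma, adjusted p = 0.18), the same FPKM sum in each library, and Media and LPS fitted alone. Hdac1 (0.33 ± 0.15), Hdac3 (0.08 ± 0.06) and Hdac8 (-0.03 ± 0.13) were not called with LPS, and none of the 4 was called with Hevin (-0.08 to -0.00; limma, with 0 at an unadjusted p under 0.05 and 0 by limma-voom). Hdac11, the class IV enzyme, was not tested and rested on 2 to 95 reads.

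Compared directly, Hevin and LPS libraries differed in 27 members, with 15 higher and 12 lower in Hevin (26.3% and 21.1% of 57, against 29.9% and 28% of all genes). Leaving aside Hdac9, 15 were higher and 11 lower of 56 (26.8% and 19.6%). Without the block 12 were higher and 10 lower, against 22% and 19.7%, and leaving aside Hdac9 12 and 9. The largest differences were Kdm6b (-2.10 ± 0.09, Hevin minus LPS, adjusted p = 1.7e-08), Hdac5 (1.19 ± 0.12), Kdm1a (0.93 ± 0.07), Ehmt2 (0.86 ± 0.08), Sirt1 (-0.66 ± 0.08), Kdm7a (0.64 ± 0.06) and Kdm5c (-0.64 ± 0.06). For these 7 the Hevin and LPS libraries did not overlap, but they were picked as the largest differences. The share of all genes without overlap was not counted. Setd7 (0.56 ± 0.10), Setd1b (0.55 ± 0.09), Sirt4 (0.53 ± 0.14), Kdm1b (0.52 ± 0.11), Ehmt1 (0.49 ± 0.06), Sirt3 (0.48 ± 0.12), Sirt6 (0.41 ± 0.13), Kdm2b (0.36 ± 0.09), Hdac10 (0.35 ± 0.11) and Kdm3a (0.29 ± 0.07) were also higher in Hevin. Kmt2a (-0.44 ± 0.07), Jmjd6 (-0.38 ± 0.07), Setd2 (-0.33 ± 0.10), Kmt2b (-0.33 ± 0.07), Kdm4a (-0.27 ± 0.06), Sirt2 (-0.26 ± 0.07), Hdac2 (-0.25 ± 0.08) and Setd8 (-0.25 ± 0.08) were lower, as was Hdac9, chosen in part by the filter. The calls of Setd2, Setd8, Kdm3a, Kdm2b and Hdac10 ended without the block (adjusted p = 0.14, 0.35, 0.12, 0.13 and 0.096), and they also ended for Setd8 without number 2 or 3, Hdac10 without number 1, 2 or 4, and Setd2 without number 1. Those of Hdac2 and Sirt6 ended without number 3 or number 4. Quantile normalization ended the calls of Hdac2, Sirt6, Hdac10, Setd8, Sirt2 and Setd2, and upper quartile scaling those of Hdac2 and Setd8. The same FPKM sum in each library ended those of Kmt2a, Jmjd6, Kmt2b, Kdm4a, Sirt2, Hdac2, Setd2 and Setd8. By limma-voom, Hdac1 (-0.43, adjusted p = 0.0354) was also called lower and Kmt2c (0.20, adjusted p = 0.0258) higher.

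Ezh1, called against Media in neither treatment, was higher in Hevin than in LPS. It measured 11.4, 9.79, 10.9 and 10.7 FPKM in Hevin and 8.65, 6.06, 7.42 and 9.32 FPKM in LPS, with no overlap (0.41 ± 0.09, adjusted p = 0.0026). Ezh2 was not called (-0.16 ± 0.11). With the same FPKM sum in each library the split over members became 40 higher and 3 lower in Hevin, and with upper quartile scaling 22 and 10. Kdm6b, Hdac5, Kdm1a, Ehmt2, Sirt1, Kdm7a and Kdm5c kept their direction and call under every alternative.

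Genes that work with these enzymes were counted from lists that hold none of them. Of 9 tested subunits of PRC2, the complex that carries Ezh1 and Ezh2, Phf19 passed the filter on low values through the LPS libraries alone and is left aside. Of the other 8, 4 rose with LPS and 0 fell by limma (50% and 0%, against 21.5% and 22.2% of all genes). Their median was 0.25 against -0.02 for all genes. Without the block 3 rose and 0 fell (37.5% and 0%, against 13.2% and 12.6%). By limma-voom 5 rose and 0 fell, against 2502 and 2452 of all 11242 genes. Jarid2, an accessory subunit that recruits the complex, measured 20.5, 19.6, 21.1 and 19.8 FPKM in Media, 16.0, 12.8, 13.9 and 13.4 FPKM in Hevin, and 51.8, 42.0, 37.3 and 45.5 FPKM in LPS. The groups did not overlap, and Jarid2 fell with Hevin (-0.51 ± 0.08, adjusted p = 0.0014) and rose with LPS (1.08 ± 0.08, adjusted p = 2.1e-06). With Hevin, 1 PRC2 gene rose (Rbbp4, 0.24 ± 0.07) and 1 fell, against 10.8% and 10.6% of all genes. Without the block these counts were 0 and 1, against 4.27% and 3.1%.

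Among 23 tested subunits of the HDAC co-repressor complexes, 4 rose and 9 fell with LPS and 4 rose and 2 fell with Hevin. For these counts and those of the lists below, the shares over all genes were 21.5% higher and 22.2% lower with LPS and 10.8% and 10.6% with Hevin. Genes named from a list are the called genes of smallest p in each direction. Sap30, a Sin3 complex subunit, rose with LPS (16.1 ± 1.73 to 27.01 ± 2.71 FPKM, SD, n = 4; 0.71 ± 0.10) and Tbl1xr1, an NCoR complex subunit, fell (-0.44 ± 0.08). With Hevin, Sin3a, the scaffold of its complex, rose (0.39 ± 0.08) and the methyl-CpG binding protein Mbd2 fell (-0.45 ± 0.09). The COMPASS subunits, partners of the H3K4 methyltransferases, had 0 higher and 3 lower of 12 with LPS, among them Pagr1a (-0.54 ± 0.11), and 0 and 1 with Hevin (Ash2l, -0.24 ± 0.08). Without the block the co-repressor counts were 2 higher and 6 lower with LPS and 1 and 1 with Hevin, and the COMPASS counts 0 and 3, and 0 and 0.

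Other methyltransferases had 3 higher and 6 lower of 19 tested with LPS, among them Prdm2 (0.47 ± 0.07) and the arginine methyltransferase Prmt7 (-0.55 ± 0.08), and 1 higher (Suv420h2, 0.47 ± 0.11) and 2 lower (among them Smyd2, -0.44 ± 0.07) with Hevin. Other JmjC proteins had 2 and 2 of 7 with LPS, with Mina higher (0.49 ± 0.10) and Jmjd1c lower (-0.48 ± 0.08), and 0 and 1 with Hevin, where Mina was lower (-0.50 ± 0.10). Of 13 acetyltransferases, which oppose the deacetylases, 3 rose and 4 fell with LPS, among them Hat1 (0.38 ± 0.09) and Kat2a (-0.56 ± 0.09), and 0 rose and 1 fell with Hevin (Kat2b, -0.28 ± 0.09). Of 14 bromodomain readers of acetylated histones, 2 rose and 1 fell with LPS (Brd3 fell by 0.33 ± 0.09 on the log2 scale), and 3 rose and 1 fell with Hevin (among them Atad2, 0.72 ± 0.09, and Trim24, -0.42 ± 0.10). Without the block, the higher and lower counts with LPS became 2 and 2 for the other methyltransferases, 1 and 0 for the JmjC proteins, 0 and 1 for the acetyltransferases and 1 and 1 for the bromodomain readers. With Hevin they became 0 and 0, 0 and 1, 0 and 0, and 1 and 0.

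**Figure D4:**
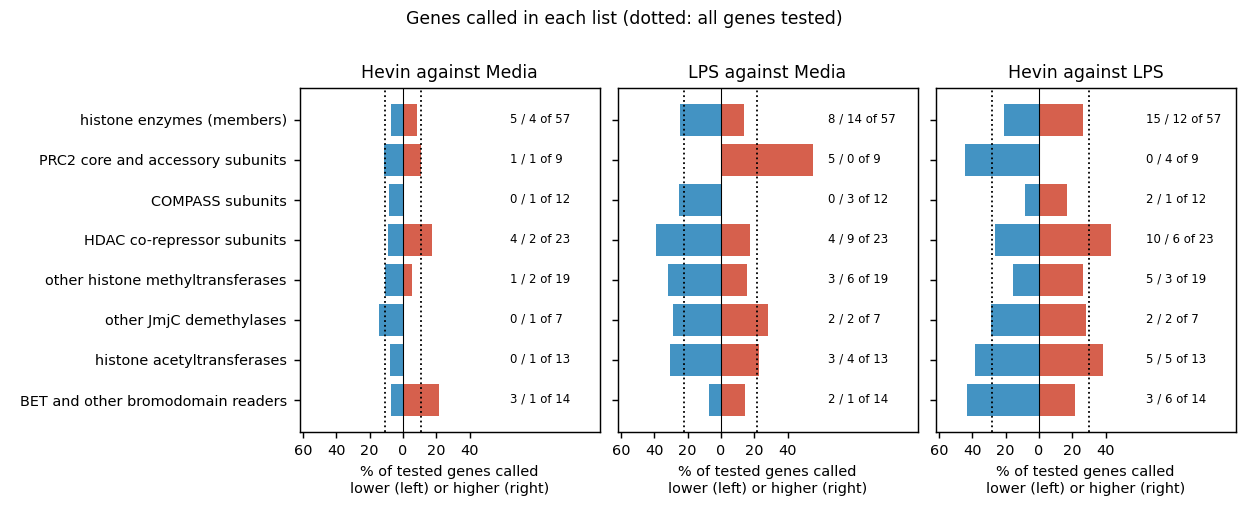
Share of tested genes called lower (blue, left) or higher (red, right) in each comparison, in percent, for the enzymes and for 7 lists of partner and related genes; dotted lines are the shares over all 11242 genes tested and the text gives counts higher / lower. PRC2 subunits with LPS show 5 of 9 higher, a count that includes Phf19, which passed the filter through the LPS libraries alone. The enzyme counts include Hdac9, which passed in the same way. The enzymes with Hevin lie within the dotted lines.

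Of the 59 members, 22 share exon bases with a gene on the opposite strand and 6 with a gene on the same strand in GENCODE M21. Among those called, these include Kdm6b (Kdm6bos), Kdm7a (4930599N23Rik), Sirt1 (Gm16145), Setd7 (5031434O11Rik), Kmt2a (AC061963.1) and Kmt2c (Gm42585) besides those named above. Kdm2b overlaps Rnf34 and A930024E05Rik on the opposite strand. On the same strand, Hdac5 overlaps Mir8101, Ehmt1 overlaps Gm37139, Kdm2b overlaps Gm44574 and Jmjd6 overlaps Gm27401. The library kit keeps strand, but its use in counting is not given in the sources used here, so reads of such pairs cannot be told apart. Kdm1a, Kdm5c and Ehmt2 share no exon bases with another gene.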

How the data were processed

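The authors deposited FPKM values of 14541 genes for 12 poly(A) libraries in 3 groups of 4, sequenced as 100 bp pairs with a strand-keeping kit, per the labels' protocols. Per the submitters' processing notes, Trimmomatic (0.39), Bowtie2 (2.3.5.1), Subread (1.6.3) with featureCounts, and edgeR (3.30.3) were among the tools and mm10 was the build. The annotation, the strand setting and the filter behind the listed genes remain not given in the sources used here. Whole reads were recovered from the FPKM steps in all 14541 rows (within 0.1 of a whole number), 18343996 to 27361665 per library. Scaling factors implied by the deposited FPKM lay within 0.00124% of TMM factors of those reads.

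Of the listed genes, 11242 reached 1 FPKM in 4 or more libraries. They were fitted in R 4.3.3 by limma 3.58.1, with a mean-variance trend, on log2(FPKM + 1), all 12 libraries together and the replicate number as a block. Benjamini-Hochberg adjustment ran over all genes, with 0.05 as threshold. Fold changes on this scale understate the change of low genes. The column names put the 3 libraries of a number in 1 numbered set, and deviations of same-number libraries from their group means correlated at 0.230 to 0.784 in each of 12 pairs, so the numbers pair the libraries. Alternatives were no block, other pseudocounts, filters and scalings, no trend, each comparison fitted alone, limma-voom on the recovered reads, and each library or number left out.

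Named genes were, per comparison, the 12 called members with the largest and the 12 with the smallest log2 fold change, all members of classes with 4 or fewer tested, and the called gene of smallest p in each direction of each list. Setd1a, Kmt2d, Kmt2e, Phf19, the members not tested and the genes of the LPS check fall outside this rule. They were chosen after their values were seen. Members and lists were chosen with earlier results of these data known. Positions and exon overlaps are from GENCODE M21 (GRCm38) and promoters from RefSeq (GRCm38.p6). The value of 1 gene that this rule names is not reported here.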

Additional observations from a re-analysis of the deposited data

Results flagged for a closer look

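In 10 of 177 groups of 4 libraries tested over the members, the highest or lowest library lay far from the other 3, by Dixon's test at its 95% level. Chance flags about 1 in 20 groups, so the number flagged is near that share. The level of Kdm6b in LPS of number 2 was 101 FPKM, against 62.7 to 69.1 FPKM in the others. Setd7 in LPS of number 1 was at 6.01 FPKM, against 4.29 to 4.47 FPKM, and still below every Media library. Hdac2 in LPS of number 4 was at 30.0 FPKM, against 26.2 to 26.6 FPKM. In the same library Hdac8 was high, at 2.70 FPKM against 1.499 to 1.68 FPKM, and Setd4 low, at 0.796 FPKM against 1.28 to 1.33 FPKM. Sirt6 in Media of number 3 was at 4.44 FPKM, against 3.73 to 3.80 FPKM. In Media of number 1, Ezh1 was at 10.0 FPKM against 8.19 to 8.44 FPKM and Kdm8 at 2.33 FPKM against 1.41 to 1.53 FPKM. Setd3 in Media of number 2 was low, at 12.9 FPKM against 14.8 to 15.0 FPKM, and Suv39h2 in Hevin of number 4 was low, at 2.93 FPKM against 3.28 to 3.33 FPKM.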

How the results depend on the processing

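The counts in this paragraph and the next include Hdac9 wherever it passed the filter. With no replicate block the members called were 1 higher and 3 lower with Hevin, 3 higher and 5 lower with LPS, and 12 higher and 10 lower in Hevin against LPS. Setting each library to the same FPKM sum gave 8 higher with Hevin, 2 higher and 43 lower with LPS, and 40 higher and 3 lower in Hevin against LPS. That scaling turned the direction with LPS of Hdac2 (-0.13), Kdm4a (-0.15), Setd2 (-0.0048) and Kdm5c (-0.00044), and in Hevin against LPS that of Hdac2 (0.16), Jmjd6 (0.044), Kdm4a (0.14), Setd8 (0.17), Sirt2 (0.16), Kmt2b (0.085) and Setd2 (0.093). Quantile normalization turned Setd8 (0.043) and Sirt2 (0.018) in Hevin against LPS. Setting the same sum moves the median of all genes by construction. Upper quartile scaling gave 6 higher and 17 lower with LPS and left 1991 higher and 3198 lower over all genes.

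Leaving out a library or a number, the Hevin calls ranged from 2 to 6 higher and 3 to 4 lower, the LPS calls from 4 to 10 higher and 7 to 14 lower, and Hevin against LPS from 14 to 17 higher and 9 to 12 lower. The Hevin calls that were higher fell to 2 without number 3, number 4, any Media library or Hevin of number 3 or 4, and to 3 without number 1, number 2 or Hevin of number 1. The LPS calls that were higher fell to 4 without number 1. Those that were lower fell to 8 without number 1 or its Media library, 7 without number 3, and 9 without Media of number 3 or 4.

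Calls held in every alternative for 4 of 9 members with Hevin (Kdm6b, Kdm1a, Sirt2, Kdm5c), 4 of 21 with LPS (Kdm6b, Hdac5, Ehmt2, Setd7) and 14 of 26 in Hevin against LPS, leaving aside Hdac9, whose difference the filter fixed. Depth limits Hdac11 and Sirt5, at 2 to 95 and 4 to 38 reads per library. The causes of these changes were otherwise not tested.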

Other observations

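Hdac11, too low to be tested, differed by number more than by treatment. It was at 0.106, 0.352, 0.590 and 0.753 FPKM in Media of numbers 1 to 4, 0.0289, 0.209, 1.20 and 0.625 FPKM in Hevin, and 0.137, 0.209, 0.688 and 0.364 FPKM in LPS. In each group the libraries of numbers 3 and 4 were above those of numbers 1 and 2, which was noticed after the values were seen and was not tested.

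Other marker lists held called genes too. Over all genes, 10.8% were higher and 10.6% lower with Hevin, and 21.5% and 22.2% with LPS. Without the block these shares were 4.27% and 3.1%, and 13.2% and 12.6%. The counts of the proliferation list below lie near them. Of 5 tested neuron markers, 0 were called with either treatment. Of 8 endothelial and mural markers, 1 was higher and 0 lower with each. Of 3 tested astrocyte markers, 0 were higher and 1 lower with Hevin, and 2 and 0 with LPS. Of 6 tested neutrophil and monocyte markers, 5 were called higher with LPS and 1 with Hevin, and none passed without the block. Border macrophage markers had 1 higher and 3 lower of 8 with Hevin and 1 higher and 4 lower with LPS (without the block, 1 and 1, and 1 and 0), with sums of 1125 to 1389 FPKM in Media, 805 to 1141 FPKM in Hevin and 874 to 1196 FPKM in LPS. Proliferation markers had 2 higher and 0 lower of 9 with Hevin and 1 higher and 2 lower with LPS (without the block, 1 and 0, and 1 and 1). Oligodendrocyte lineage markers had 1 higher and 0 lower of 4 with Hevin and 0 higher and 3 lower with LPS (without the block, 1 and 0, and 0 and 2), with sums of 12.4 to 15.6 FPKM in Media, 23.9 to 39.0 FPKM in Hevin and 8.46 to 10.3 FPKM in LPS. Of the 10 microglia markers, 8 were higher and 0 lower with Hevin, and 1 higher and 4 lower with LPS (without the block, 6 and 0, and 0 and 2). Their part in the levels of the histone enzymes was not tested.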
